A study of Homo sapiens with 9 samples.

Results

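Subtelomeric hybrid regions are taken here as the DNA:RNA hybrid peaks whose midpoint lay in the first 2 Mb or the last 2 Mb of chromosomes 1 to 22 of the hg38 assembly. Position alone chose them, and 30592 of the 435537 peaks in the 8 lists of the study qualified. The rest of the same chromosomes, called the interior, held 395310 peaks. The cells were SH-SY5Y, an established human neuroblastoma line, with a stably integrated short hairpin. The shNC cells carried a negative control hairpin and the shTDP43 cells a hairpin against TDP-43, an RNA- and DNA-binding protein, and puromycin (2 µg/mL during 2 weeks of selection, then 1 µg/mL) held both in culture. Each genotype had 3 untreated libraries and 1 library made after 6 h of RNase H, each from 6 µg of nucleic acid cut with 5 restriction enzymes. The labels do not say whether replicates came from separately transduced cultures, so p-values measure only the spread between these libraries. A further input library was not analysed here. A gene counted as covered where any base of its span or of the 1 kb on each side lay under a peak. Of 10 markers of the adrenergic neuroblastoma state, 9 were covered in all 6 untreated libraries and 1, TH, in none. Of 9 mesenchymal markers 3 were covered in all 6 and 3 in none, beside 60.7% and 28.6% of interior coding genes. Peaks record hybrids and not transcript levels.

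A DNA:RNA hybrid forms when an RNA strand pairs with its template and displaces the other DNA strand, giving an R-loop. Hybrids gather where transcription is active and where the DNA is rich in guanine and cytosine, often next to unmethylated CpG promoters. DRIP-seq (DNA:RNA immunoprecipitation with sequencing) recovers them with the antibody S9.6, and RNase H, which digests the RNA of a hybrid, gives the negative control. Subtelomeres are the stretches inside the telomere repeats. Many are rich in genes and in GC, and their outermost parts consist of segments copied between chromosome ends. The telomeric repeat RNA TERRA starts there and can form hybrids with the telomere itself, which is not in the reference assembly.

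The sequences below show the promoters of the genes to which the results return. They are the 250 bases before the transcription start, read in the direction of the gene, from the RefSeq GRCh38.p14 promoter table, whose coordinates are those of hg38. CpG dinucleotides are in capitals. LUC7L (chr16:229450-229699, minus strand), PRKAR1B (chr7:712505-712754, minus strand, 1 of 6 starts in the table), SPIRE2 (chr16:89828225-89828474, plus strand) and ATP11A (chr13:112689788-112690037, plus strand) were the terminal coding genes called different between genotypes. INTS1 (chr7:1504390-1504639, minus strand) and RPS15 (chr19:1438146-1438395, plus strand) lay in the longest shared regions, and NOTCH1 (chr9:136546049-136546298, minus strand) was chosen after its values were seen.
LUC7L: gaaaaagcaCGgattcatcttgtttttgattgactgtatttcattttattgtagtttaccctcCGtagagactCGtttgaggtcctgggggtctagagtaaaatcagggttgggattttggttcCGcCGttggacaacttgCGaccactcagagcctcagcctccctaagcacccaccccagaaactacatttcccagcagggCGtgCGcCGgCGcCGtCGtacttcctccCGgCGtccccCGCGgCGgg
PRKAR1B: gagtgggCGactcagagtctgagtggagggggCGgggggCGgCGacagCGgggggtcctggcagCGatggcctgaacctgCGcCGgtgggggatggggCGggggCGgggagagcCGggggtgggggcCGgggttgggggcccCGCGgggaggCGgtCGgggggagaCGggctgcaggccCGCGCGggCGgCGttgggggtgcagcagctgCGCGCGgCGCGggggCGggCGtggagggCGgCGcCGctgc
SPIRE2: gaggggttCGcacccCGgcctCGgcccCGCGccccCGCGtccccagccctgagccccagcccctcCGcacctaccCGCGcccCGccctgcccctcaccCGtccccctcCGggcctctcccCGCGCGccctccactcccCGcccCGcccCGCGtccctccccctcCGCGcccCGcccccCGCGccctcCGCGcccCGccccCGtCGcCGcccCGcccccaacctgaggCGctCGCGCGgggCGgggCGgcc
ATP11A: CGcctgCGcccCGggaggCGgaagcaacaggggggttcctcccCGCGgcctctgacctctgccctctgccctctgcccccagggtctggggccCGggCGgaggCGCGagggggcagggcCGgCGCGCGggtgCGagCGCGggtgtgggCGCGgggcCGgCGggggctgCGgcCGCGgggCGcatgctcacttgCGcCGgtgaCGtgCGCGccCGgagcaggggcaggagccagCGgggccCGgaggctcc
INTS1: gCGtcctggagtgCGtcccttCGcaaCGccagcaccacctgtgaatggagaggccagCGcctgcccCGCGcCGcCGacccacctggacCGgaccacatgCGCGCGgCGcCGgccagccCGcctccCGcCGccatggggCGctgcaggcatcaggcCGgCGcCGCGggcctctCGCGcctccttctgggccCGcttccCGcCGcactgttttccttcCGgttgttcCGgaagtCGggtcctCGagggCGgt
RPS15: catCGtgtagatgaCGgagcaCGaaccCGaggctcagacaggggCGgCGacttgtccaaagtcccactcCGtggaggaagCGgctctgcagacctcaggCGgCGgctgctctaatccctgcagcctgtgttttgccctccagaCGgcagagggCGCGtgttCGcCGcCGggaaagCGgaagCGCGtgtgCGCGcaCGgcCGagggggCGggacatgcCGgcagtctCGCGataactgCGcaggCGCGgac
NOTCH1: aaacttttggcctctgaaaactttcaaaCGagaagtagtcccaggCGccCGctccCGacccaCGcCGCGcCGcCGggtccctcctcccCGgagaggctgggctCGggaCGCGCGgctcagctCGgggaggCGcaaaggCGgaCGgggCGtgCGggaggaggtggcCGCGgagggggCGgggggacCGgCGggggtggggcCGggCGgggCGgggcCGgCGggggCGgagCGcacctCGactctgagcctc
The counts of CpG were 17 for LUC7L, 32 for PRKAR1B, 38 for SPIRE2, 33 for ATP11A, 33 for INTS1, 30 for RPS15 and 33 for NOTCH1. All 250 bases of the SPIRE2, ATP11A, INTS1 and RPS15 promoters were under peaks in each of the 6 untreated libraries and 0 bases in either treated library. The LUC7L promoter had 158 bases under a peak in each of the 6. The PRKAR1B start shown, which lies inside the annotated gene, had 60, 250 and 0 bases in shNC and 250 in each shTDP43 library. The cover of its other starts is not given here. The NOTCH1 promoter had 38 bases in shNC replicate 1 and 0 elsewhere.

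Chromosome ends carried more hybrid peaks, closer together and wider, than the interior of the same chromosomes. In the 3 shNC libraries the terminal 2 Mb held 62.4, 60.4 and 62.2 peaks per Mb against 25.5, 24.0 and 24.5 in the interior. In the 3 shTDP43 libraries it held 60.6, 66.1 and 62.7 against 19.5, 24.0 and 24.2. The terminal value was above the interior value in each of the 6 libraries, with no overlap between the 2 sets. The mean log2 ratio was 1.41 ± 0.13 (SD, n = 6), a 2.65-fold higher density (2-sided exact sign-flip permutation test over libraries, p = 0.03125, the smallest that 6 libraries can give). The percent of length under peaks was 16.3, 15.5 and 14.3 in shNC and 12.6, 16.5 and 15.8 in shTDP43 at the ends, against 4.81, 4.38 and 4.26 and 3.04, 4.30 and 4.41 in the interior. That is a log2 ratio of 1.86 ± 0.11 (SD, n = 6), or 3.63-fold (exact sign-flip permutation test, p = 0.03125). Terminal peaks made up 6.89% ± 0.11 (SD, n = 3) of the shNC peaks on these chromosomes and 7.70% ± 0.66 (SD, n = 3) of the shTDP43 peaks. Densities leave out 1 Mb windows with neither a peak in any list nor a coding gene, which removed 10 Mb of the ends, all of it on acrocentric short arms, and 154 Mb of the interior.

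**Figure D1:**
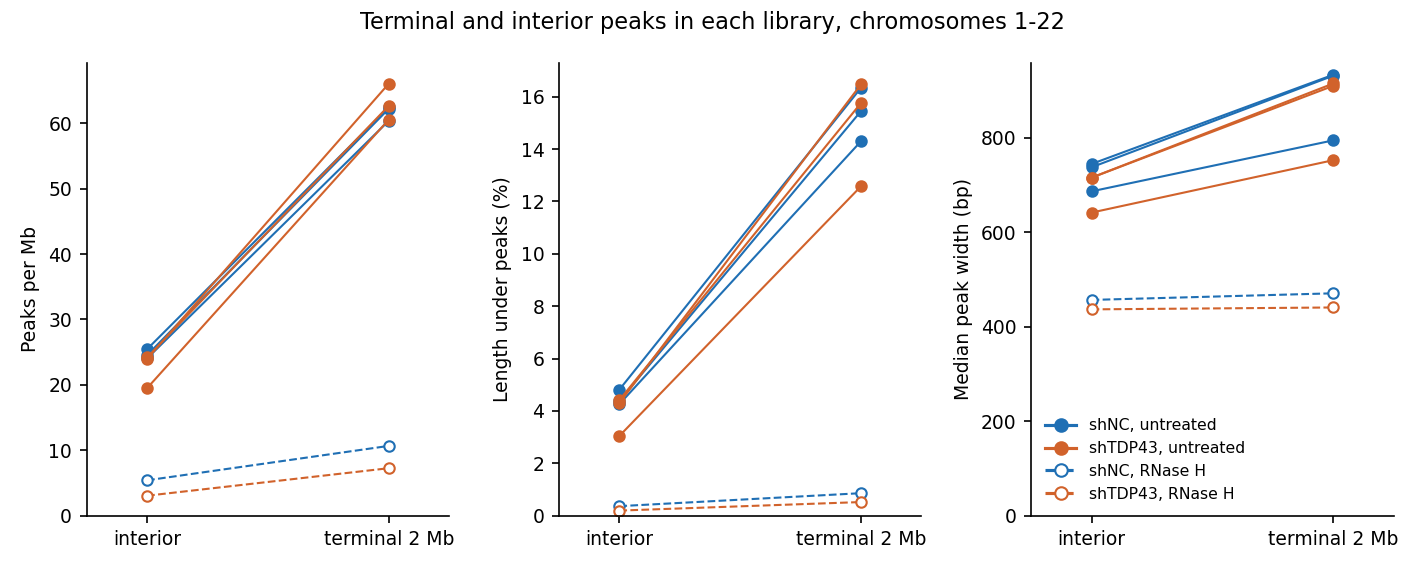
Peaks per Mb, percent of length under peaks and median peak width (bp) in the interior and the terminal 2 Mb of chromosomes 1 to 22, with a line for each of the 8 libraries. In all 6 untreated libraries each measure is higher at the ends, and the 2 RNase H libraries run far below them.

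The median width of a terminal peak was 934, 932 and 795 bp in shNC and 753, 915.5 and 910.5 bp in shTDP43. Interior medians were 745, 738 and 687 bp and 642, 716 and 716 bp. Terminal peaks were wider in 6 of 6 libraries, by 166 ± 43.9 bp (SD, n = 6; exact sign-flip permutation test, p = 0.03125; Benjamini-Hochberg adjusted over the 3 measures, 0.03125 for each). Peaks over 5 kb made up 12.5% ± 0.83 (SD, n = 3) of the terminal shNC peaks and 7.47% ± 0.44 of the interior ones. After RNase H the shNC medians were 471 bp at the ends and 457 bp in the interior, and the shTDP43 medians 441 and 437 bp. The gap in width thus came to 14 and 4 bp in the treated libraries, which have no replicate.

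Within promoter windows, the edges of untreated peaks lay at restriction sites far more often than bases in general. Edges outside these windows were not examined, and the windows hold none of chromosome 8. BsrGI cuts within the hexamer TGTACA, and EcoRI within the hexamer GAATTC. The site of HindIII is AAGCTT, that of SspI is AATATT, and that of XbaI is TCTAGA. Each site reads the same on both strands and none contains another. Within the 300-base promoter windows of the RefSeq table, 1.15% of terminal bases lay within 10 bp of the centre of such a site. Of the 103 to 129 terminal peak edges in those windows per untreated library, 28.9%, 27.2% and 27.0% in shNC and 23.3%, 22.8% and 22.8% in shTDP43 did so. Interior windows gave 39.7 to 45.5% in shNC and 32.8 to 44.3% in shTDP43 against 2.07% of bases. After RNase H few terminal edges fell in the windows, and 1 of 26 in shNC and 3 of 14 in shTDP43 lay near a site. An example is the LUC7L promoter, where the same peak, chr16:227837-229607 and 1771 bp wide, was listed in all 6 untreated libraries and ended inside an XbaI site that starts at base 229603. A terminal window held a site in 13.5% of cases (270 of 1993) and an interior window in 23.3% (7351 of 31558). Sites in promoter windows were thus scarcer at the ends, where peaks were wider. Whether the spacing of sites accounts for the difference in width was not tested.

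The 44 chromosome ends were far from alike. The short-arm ends of the acrocentric chromosomes 13, 14, 15, 21 and 22 had neither a peak nor an annotated coding gene. Over the other 39 ends the mean length under peaks ran from 0.053% at 3p to 45.8% at 19p, with a median of 12.0%. The 5 ends with the most cover were 19p, 9q (40.8%), 17q (40.2%), 16p (34.5%) and 8q (33.1%). The 5 with the least were 3p, 9p (0.189%), 4q (0.194%), 18p (0.588%) and 6p (0.701%). Over 20% of length was covered at 15 ends and under 1% at the 5 named last.

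At 19p, which holds APC2 and the ribosomal protein gene RPS15, peaks covered 963, 940 and 877 kb of the 2 Mb in shNC and 818, 955 and 941 kb in shTDP43. At 9q they covered 887, 848 and 815 kb and 686, 835 and 827 kb. At 3p they covered 1.03, 1.45 and 0.838 kb and 1.03, 1.03 and 1.00 kb. The ends differ up to 861-fold and the libraries of an end by much less, and shTDP43 replicate 1, the shallowest untreated library, is the lowest at 19p and 9q. Chromosome 9 thus had 1 of the most and 1 of the least covered ends, a 216-fold difference between its arms. Chromosomes 4 (30.4% at 4p, 0.194% at 4q) and 3 (0.053% at 3p, 7.73% at 3q) also differed by 157-fold and 145-fold, whereas 5p and 5q were 11.6% and 12.0%. Of the 17 chromosomes with both ends measured, the p end was higher on 6.

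**Figure D2:**
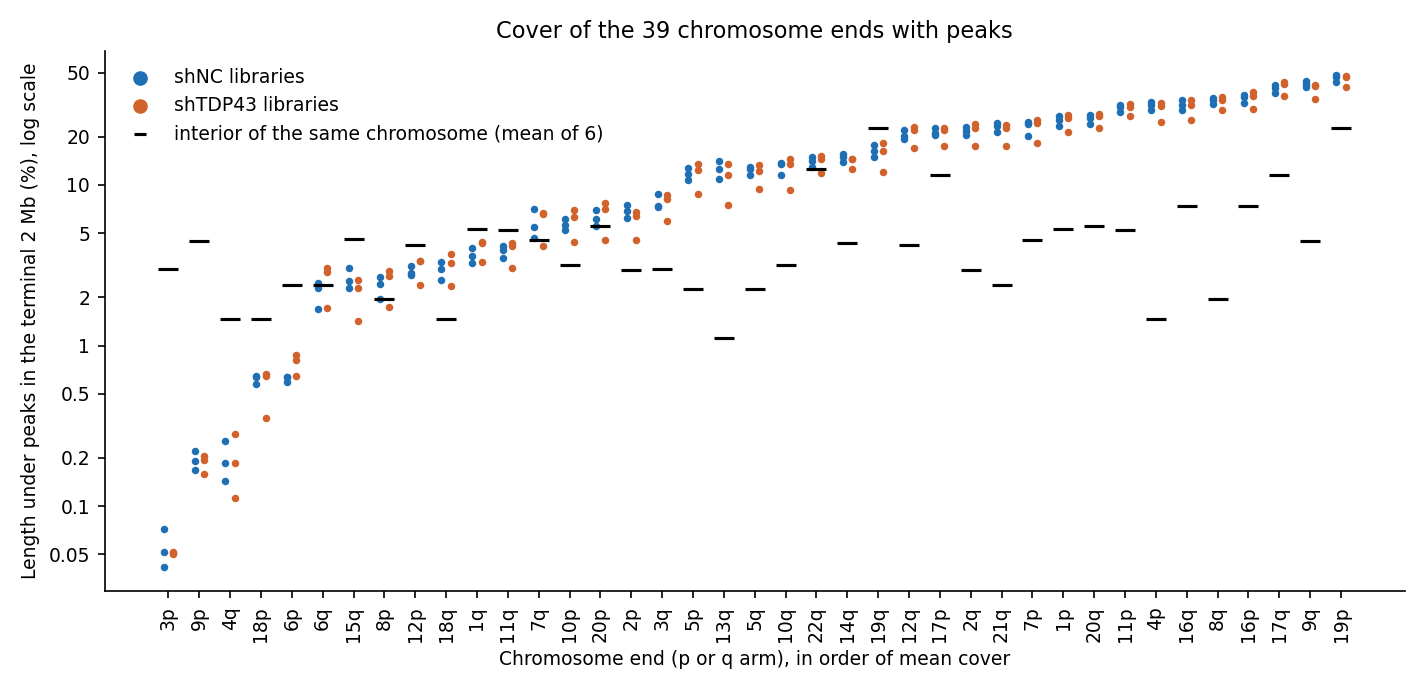
Percent of length under peaks (log scale) in the terminal 2 Mb of 39 chromosome ends, with a point per untreated library and a bar for the interior of the same chromosome (mean of 6). Values run from 0.053% at 3p to 45.8% at 19p, and 26 ends lie above their own interior in all 6 libraries.

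Against the interior of their own chromosome, 26 of the 39 ends had more cover in all 6 untreated libraries and 10 had less in all 6. Those above included 4p (20.7-fold over an interior of 1.47%), 8q (16.9-fold) and 13q (10.6-fold). The 10 below included 19q, with 15.96% against 22.7%, and 1q, with 3.82% against 5.35%. Among the 2 Mb windows of the same chromosome, 8 ends ranked first and 19 stood in the top 10%. Cover across ends followed the number of coding genes (Spearman's rho 0.82 and Pearson's r 0.81 over 39 ends, as a description, since the ends share libraries), and the 1329 interior windows gave a rho of 0.82 as well. The median peak was wider than that of the own interior at 31 ends.

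Within classes of gene number mean cover was also higher at the ends, though gene numbers inside a class were not matched. In 2 Mb windows with 40 or more coding genes, 29.7% ± 2.39 of the length was covered at 12 ends and 19.9% ± 2.13 in 79 interior windows (SD over 6 libraries). With 20 to 39 genes the values were 15.3% ± 1.86 at 12 ends and 10.3% ± 1.44 in 177 windows. With 10 to 19 genes they were 3.78% ± 0.47 at 10 ends and 3.47% ± 0.60 in 408 windows, higher at the ends in 5 of 6 libraries (a difference of 0.32 ± 0.33 percentage points within a library). With 0 to 9 genes they were 2.63% ± 0.44 at 5 ends and 0.909% ± 0.17 in 665 windows. In that class and in both classes with 20 genes or more, cover was higher at the ends in 6 of 6 libraries. The mean gene number was higher there as well (5.80 against 4.22, 29.7 against 26.8, and 62.4 against 56.9). With 0 to 9 genes, however, 3p (0.053%), 4q (0.194%) and 6p (0.701%) lay below the interior mean of the class. Only 2p (6.41%) and 7q (5.78%) lay above it, and the 6 libraries share these ends. With 10 to 19 genes the mean gene number was lower at the ends (12.3 against 13.5). Whether gene number accounts for the difference in cover was not tested. Both inside and outside coding gene spans the ends were denser: 23.3% ± 2.27 of genic length was covered against 7.62% ± 1.10 in the interior, and 6.19% ± 0.63 of other length against 1.47% ± 0.21. The share of all cover that fell inside coding genes was 80.5% in both, although their spans made up 52.3% of terminal and 44.4% of interior length.

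Promoters gave a different picture. Of 2002 terminal promoters in the table, 37.4% (748) lay under a peak in all 6 untreated libraries, against 29.0% (9193) of 31723 interior promoters. The terminal promoters had a median GC content of 66.4% and 18 CpG in 250 bases, against 57.6% and 10 in the interior. Terminal promoters under a peak in all 6 had a median of 71.2% GC and 28 CpG, and those under no untreated peak 60.4% and 10. Within classes of GC the direction varied: with 60 to 70% GC, 40.4% of terminal and 44.0% of interior promoters were under a peak in all 6, and with 70% or more, 52.2% and 55.5%. With 50 to 60% GC the shares were 20.2% and 24.5%, and with 40 to 50% they were 10.5% and 6.70%. Under 40% GC they were 3.41% and 2.13%. The telomere repeat hexamer, searched as TTAGGG and as CCCTAA for the other strand, occurred in 5.59% of terminal promoters and in 7.99% of all 33725 promoters, with 1 copy in that of LUC7L. The table matched 956 of the 1257 terminal coding genes.

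Hairpins of microRNAs, short RNAs that repress messenger RNAs, showed the same lean at the ends. Of 92 terminal hairpins listed by RefSeq, 33 (35.9%) lay under peaks in all 6 untreated libraries, against 274 of 1369 (20.0%) in the interior, and 48 terminal hairpins lay under no untreated peak. The mature sequences that follow, with the seed (bases 2 to 8) in capitals, were chosen after the values were seen, to show known microRNAs from both classes.
hsa-miR-126-3p: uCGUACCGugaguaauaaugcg
hsa-miR-149-5p: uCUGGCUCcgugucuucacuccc
hsa-miR-210-3p: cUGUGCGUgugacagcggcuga
hsa-miR-200b-3p: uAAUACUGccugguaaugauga
hsa-miR-429: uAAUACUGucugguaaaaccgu
The hairpins of miR-126 (9q, in the endothelial gene EGFL7), miR-149 (2q) and miR-210 (11p, a hypoxia-induced microRNA) were under peaks in all 6 untreated libraries and in neither treated library. Those of miR-200b and miR-429 (1p), which share the seed AAUACUG and belong to an epithelial family, were under no peak in any of the 8. The lists do not show whether a hairpin's own transcript or that of a host gene formed the hybrid.

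The cover was not spread evenly over the 2 Mb. The outermost 100 kb of the 39 ends had 7.35 ± 0.45 peaks per Mb and 1.00% ± 0.13 of its length under peaks (SD, n = 6 untreated libraries), below the 20.3 ± 2.01 peaks per Mb and 3.34% ± 0.50 found more than 20 Mb from an end. From 100 to 250 kb the cover was 1.56% ± 0.36, and from 250 to 500 kb it was 9.24% ± 1.58. It was highest from 0.5 to 1 Mb, with 18.6% ± 1.82 and 79.7 ± 2.69 peaks per Mb, and from 1 to 2 Mb, with 18.3% ± 1.74. Further in it was 10.6% ± 1.26 from 2 to 5 Mb, 6.60% ± 0.91 from 5 to 10 Mb and 5.48% ± 0.76 from 10 to 20 Mb. The 2 classes between 0.5 and 2 Mb differed by less than the spread between libraries. Coding genes numbered 6.92 per Mb in the outer 100 kb, 14.2 from 100 to 250 kb, 18.97 from 0.5 to 1 Mb and 6.16 beyond 20 Mb. The stretch from 100 to 250 kb thus had more genes than the deep interior and less cover. A terminal length of 500 kb gave a density ratio of 0.50 on the log2 scale, a cover ratio of 0.22 (exact sign-flip permutation test, p = 0.125) and a median peak 32.8 bp narrower than in the interior (a difference of -32.75 bp; exact sign-flip permutation test, p = 0.03125).

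**Figure D3:**
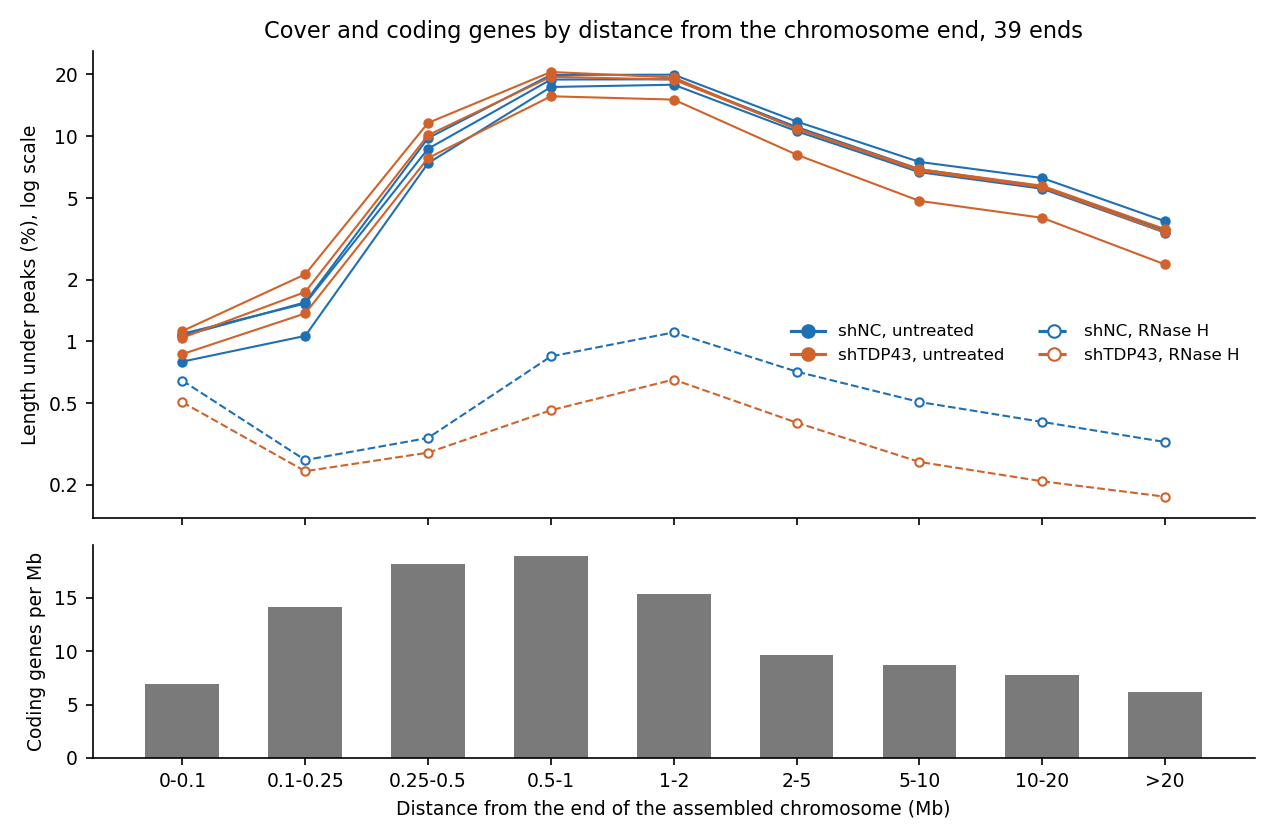
Percent of length under peaks (log scale) by distance from the end of the assembled chromosome in each of the 8 libraries (upper panel) and coding genes per Mb (lower panel), over 39 ends. Untreated cover climbs from 1.00% in the outer 100 kb to 18.6% between 0.5 and 1 Mb, whereas treated cover is relatively high in the outer 100 kb.

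In contrast to the sparse outer 100 kb as a whole, short regions directly at the tips of the assembled sequence were called in every library, RNase H included. When the untreated peaks of all 6 libraries were merged, 17 regions lay within 20 kb of a tip, and 14 of them, at 11 ends (2p, 3p, 4p, 4q, 9p, 10q, 11q, 12p, 13q, 15q and 16p), were in all 8 lists. The nearest began 10.0 kb from the end of the coordinates, just inside the unsequenced bases with which the assembly fills these ends. The longest was chr12:10511-16129, which spans the pseudogenes DDX11L8 and WASH8P, relatives of a DNA helicase gene and of a gene for an actin regulator of endosomes. Its covered length was 5613, 5619 and 5600 bp in untreated shNC and 5619 bp after RNase H. In shTDP43 it was 4423, 5595 and 5586 bp untreated and 4621 bp treated. The treated value lay within the untreated range in both genotypes. Treated cover was counted only inside regions merged from untreated peaks, however, so it could not exceed the width of a region. In shNC it reached that full width, 5619 bp.

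Other tip regions gave the same picture in shNC. At chr2:10234-12322 peaks covered 2081, 2089 and 2033 bp untreated and 2059 bp treated. At chr10:133785620-133787302 they covered 1674, 1683 and 1646 bp untreated and 1645 bp treated, just below each untreated value. Over all 17 regions, which were chosen on untreated peaks alone, the treated cover in shNC was 85.1 to 131% of the untreated mean, with a median of 100.1%. In shTDP43 it was 0 to 125%, with a median of 88.8%. A treated peak lay in 17 of the 17 regions in shNC and in 16 in shTDP43, the exception being chr9:12741-13356 at 9p (0, 616 and 491 bp untreated, 0 bp treated). Over whole ends the median was 6.16% in shNC and 3.76% in shTDP43. Each genotype has 1 treated library, so these values have no replicate check.

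The authors' fold enrichment at the 14 regions had a median of 31.5 in the treated shNC list and of 14.6 in the treated shTDP43 list, for regions that were chosen as present in both. Other regions of this kind lay on DDX11L10 at 16p and on DDX11L5 and WASHC1 at 9p, a coding member of the same WASH family. These families have near-identical copies at several ends, so which end gave the reads of a peak is uncertain.

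**Figure D4:**
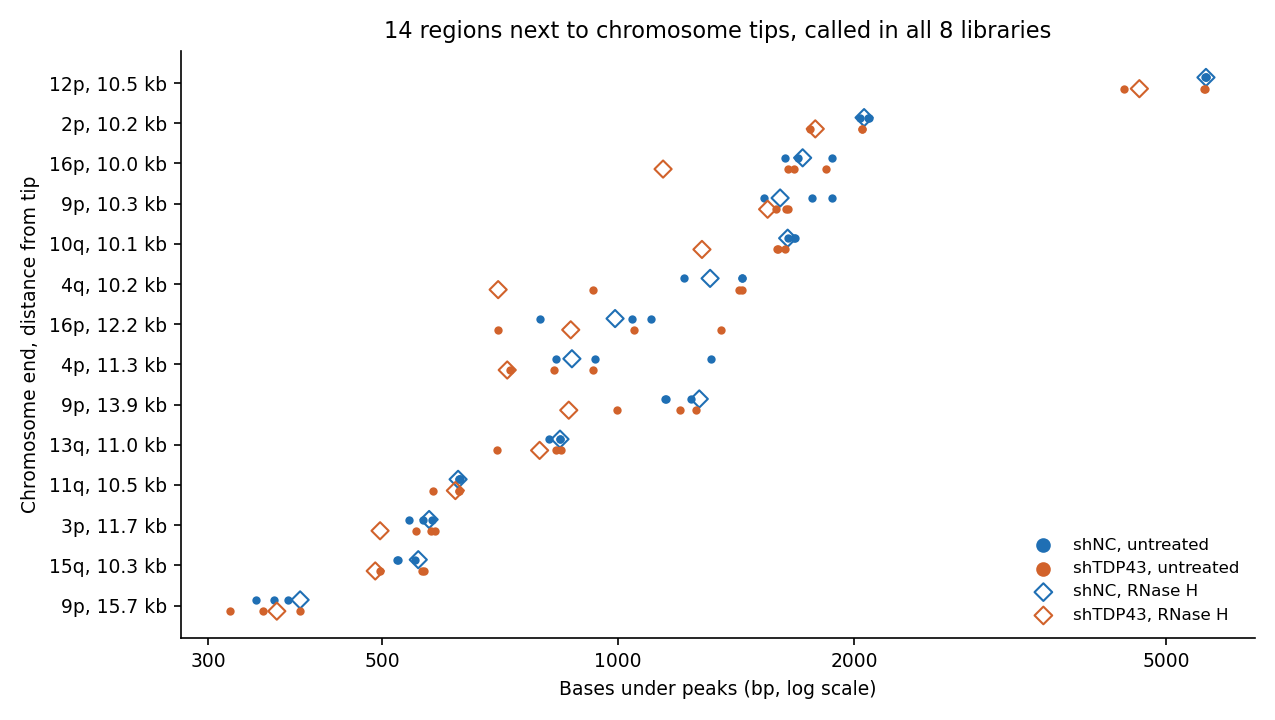
Bases under peaks (log scale) in the 14 merged regions within 20 kb of a chromosome tip that were called in all 8 libraries, named by end and distance from the tip. Filled points are untreated libraries and open diamonds the RNase H libraries, and in shNC the treated values of these regions, chosen as present after treatment, are 85.1 to 108% of the untreated mean.

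Away from the tips, most terminal peaks were no longer listed after RNase H, as in the interior. In shNC 832 terminal peaks were listed after treatment against 4709 to 4869 before, and in shTDP43 566 against 4723 to 5152. Of terminal regions present in at least 2 of 3 untreated shNC libraries, 8.93% (312 of 3493; Wilson 95% interval 8.03 to 9.92) overlapped a treated peak, against 8.10% (7.86 to 8.35) in the interior. For shTDP43 the shares were 6.77% (239 of 3530; 5.99 to 7.65) and 5.05% (4.85 to 5.27). Intervals cover counting error only, and treated and untreated libraries differed in depth. By distance, 71.4% (20 of 28; 52.9 to 84.7) of shNC regions and 60.7% (17 of 28; 42.4 to 76.4) of shTDP43 regions in the outer 100 kb overlapped a treated peak. From 100 to 500 kb the shares were 6.40% and 6.09%, and no class further in exceeded 9.46%. The share was thus higher in the outer 100 kb, though most of the overlapping regions lay further in. Treated peaks that were terminal coincided with an untreated peak of the same genotype in 79.1% (shNC) and 79.2% (shTDP43) of cases, against 51.4% and 47.3% in the interior. Untreated peaks covered a mean of 15.4% (shNC) and 14.9% (shTDP43) of terminal length, against 4.48% and 3.92% of the interior. Overlap by position alone is therefore likelier at the ends, and its part in this difference was not tested.

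The ends 3p, 4q and 9p had more cover after RNase H than before in shNC: 3.19 kb against 1.03, 1.45 and 0.838 kb at 3p, 7.40 kb against 5.09, 3.72 and 2.87 kb at 4q, and 6.41 kb against 3.804, 4.40 and 3.37 kb at 9p. The treated shNC value exceeded each of the 3 untreated ones at all 3 ends. In shTDP43 the same held at 3p (2.02 kb against 1.03, 1.03 and 1.00 kb) and at 4q (5.78 kb against 2.24, 5.66 and 3.69 kb). At 9p the treated shTDP43 value, 3.43 kb, was within the untreated range. These are 3 of the 5 ends with the least cover, and each has a tip region in all 8 lists. In shNC the treated cover of those tip regions was 102% of the untreated mean at 3p and 96.1% at 4q. At 9p it was 93.3, 107.7 and 108.4%. The added length in shNC thus lay mostly outside these tip regions.

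The longest hybrid regions at the ends joined several genes and were nearly the same in each untreated library. At 16p, chr16:641762-735999 (94.2 kb) ran over a row of coding genes, among them STUB1, which encodes a ubiquitin ligase of misfolded proteins, and RHOT2, a mitochondrial transport GTPase. It was covered over 94238, 93714 and 93724 bp in shNC and 92166, 93609 and 94006 bp in shTDP43, and over 12021 and 6376 bp after RNase H. At 11p, chr11:817602-881145 (63.5 kb) held the tetraspanin gene CD151 and the RNA polymerase subunit gene POLR2L. At 17q, chr17:81663112-81724657 (61.5 kb) held HGS, an endosomal sorting gene, and MRPL12, a mitochondrial ribosomal protein gene. At 19p, chr19:1431052-1486575 (55.5 kb) held APC2 and RPS15, and at 7p, chr7:1456419-1507797 (51.4 kb) held INTS1, a subunit of the Integrator complex that cleaves nascent RNA.

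Of the other long regions, a pair lay at 9q and 1 at 2q. At 9q, chr9:136817099-136871268 (54.2 kb) held EDF1, a transcriptional coactivator gene, and was covered from end to end in all 3 shNC libraries. The second, chr9:137153660-137202530 (48.9 kb), held the NMDA receptor gene GRIN1 and ANAPC2, a subunit of the anaphase-promoting complex. It was covered over 48229, 48871 and 47879 bp in shNC and 46681, 48465 and 47766 bp in shTDP43, and over 0 bp in both treated libraries. At 2q, chr2:240732916-240780912 (48.0 kb) lay in the axonal kinesin gene KIF1A, with 702 and 283 bp left after treatment. In each of these 8 regions the lowest untreated cover was that of shTDP43 replicate 1.

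Fixed lists placed known genes on this map. Of the 23 genes for telomere maintenance and DNA repair 10 are terminal, and all 10 had enough cover to be tested (a mean of at least 500 bp). RTEL1 at 20q, the helicase that unwinds telomere loops and R-loops, was covered over 28.9, 27.6 and 26.4 kb in shNC and 24.9, 30.7 and 29.9 kb in shTDP43, with 7.46 and 4.54 kb after RNase H. POLE at 12q, the leading-strand DNA polymerase, had 36.1, 35.6 and 29.8 kb and 27.0, 33.8 and 36.4 kb, and 0 kb after treatment. The ranges of the genotypes overlap for both. EHMT1 at 9q, a histone methyltransferase gene, had 47.5 to 77.1 kb over the 6 libraries, STK11 at 19p, a tumour suppressor kinase, 23.4 to 24.3 kb, and CHFR at 12q, a mitotic checkpoint ubiquitin ligase, 15.6 to 24.6 kb.

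Most coding genes of the families in the copied outer segments had no cover. The DDX11L and WASH pseudogenes described above were named because tip peaks overlap them. Copies without a peak were not counted, so the 2 kinds of member cannot be compared. Of 21 terminal members of the duplicon gene list 18 had no cover in any untreated library, and 2 could be tested: ZNF721 at 4p, a zinc finger gene with 5.94 to 11.01 kb, and WASHC1 at 9p, with 1.35 to 1.59 kb untreated and 1.72 and 1.23 kb after RNase H. Neuronal genes were mixed. Of 36 terminal members of the synaptic list 24 were tested and 8 had no cover. CACNA1B at 9q, a presynaptic calcium channel gene, had 51.7 to 71.7 kb, and PTPRN2 at 7q, a secretory granule phosphatase gene, 36.6 to 78.9 kb. GNB1 at 1p, a G protein subunit gene, had 30.3 to 47.2 kb and PALM at 19p, a membrane protein gene of neurites, 28.8 to 35.9 kb.

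Of 21 terminal RNA processing genes 20 were tested. PCBP3 at 21q, an RNA-binding protein gene, had 109, 110 and 99.7 kb in shNC and 66.7, 97.0 and 93.7 kb in shTDP43. Its groups did not overlap, as in 1895 of all 12792 genes tested, but it was not called (limma adjusted p = 0.404). INTS1 had 34.4 to 36.1 kb, the splicing factor genes PRPF8 at 17p 20.2 to 26.4 kb and PRPF6 at 20q 14.7 to 27.5 kb, and MCM3AP at 21q, an mRNA export gene, 15.8 to 21.8 kb. Of 29 transcription factor and chromatin genes 17 were tested and 11 had no cover. ANKRD11 at 16q, a chromatin regulator gene, had 64.2 to 102 kb, NSD2 at 4p, a histone methyltransferase gene, 43.0 to 59.2 kb, MTA1 at 14q, a subunit gene of the NuRD complex, 47.2 to 49.2 kb, and EP400 at 12q, a chromatin remodeller gene, 23.9 to 42.7 kb. No adrenergic or mesenchymal marker is terminal. Over all coding genes 70.2% of the 1257 terminal ones had cover in all 6 untreated libraries and 21.3% in none, against 60.7% and 28.6% of 17716 interior genes.

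The contrast of ends with the interior was somewhat larger in shTDP43 than in shNC, at the limit of what 3 libraries against 3 can show. Density ratios were 2.45, 2.51 and 2.54 in shNC and 3.11, 2.76 and 2.59 in shTDP43, and cover ratios 3.40, 3.53 and 3.36 against 4.13, 3.83 and 3.57. The genotypes did not overlap in either measure. The log2 ratios differed by 0.17 for density and 0.16 for cover (2-sided exact permutation tests, p = 0.1 for each, the smallest possible, and 0.15 adjusted over 3 measures). The difference in width excess was 4.67 bp (exact permutation test, p = 0.5). Terminal density itself was 61.7 ± 1.13 peaks per Mb in shNC and 63.1 ± 2.77 in shTDP43, and interior density 24.7 ± 0.72 and 22.6 ± 2.65 (SD, n = 3). The highest ratio came from shTDP43 replicate 1, which had the lowest background pileup of the untreated lists, 1.05 against 1.62 to 2.01. Without it the difference in density was 0.10 and in cover 0.11. The part of depth in this difference was not tested. With equal peak numbers in every list it was 0.13 for density and 0.15 for cover (exact permutation test, p = 0.1 for each).

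Whole ends were compared between genotypes as rows of 2 Mb windows in a limma fit to log2 of covered length, after scaling each library to the median total. Of 39 ends 3 were called higher in shTDP43 and 0 lower at a Benjamini-Hochberg adjusted p under 0.05, beside 0.925% of all 1297 windows higher and 4.16% lower (5.09% together). At an unadjusted p under 0.05 the numbers were 21 and 0, beside 76 higher and 199 lower of all 1297. The ends were 1q (log2 difference 0.33 ± 0.06 SE, adjusted p = 0.0201), which is known for olfactory receptor genes, 12q (0.20 ± 0.04, 0.0258) and 6p (0.50 ± 0.11, 0.0344), home of the transcription factor genes IRF4 and FOXC1. In covered length 6p had 12.8, 12.8 and 11.9 kb in shNC and 12.9, 16.3 and 17.5 kb in shTDP43. The genotypes of 6p did not overlap, whereas at 1q and 12q they did. The median difference over the 39 ends was 0.16, positive at 89.7%, against -0.03 over all windows. Without scaling the medians were -0.04 and -0.23, no window was called, and the ends stood at 0.13 (1q), 0.00156 (12q) and 0.30 (6p). With a library left out, 1q and 12q were called in 2 of 6 fits and 6p in 1 of 6, and none of the 3 without any single shNC replicate or without shTDP43 replicate 2.

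In 100 kb windows 5 of 473 terminal windows were called higher in shTDP43 and 2 lower, beside 0.281% higher and 1.75% lower (2.03% together) of all 9958. The largest difference was at 16q, chr16:88338346-88438345, a window within the annotated span of the zinc finger gene ZNF469, with 11.3, 12.7 and 6.52 kb under peaks in shNC and 1.30, 1.31 and 1.61 kb in shTDP43. The groups are well apart (log2 difference -2.53 ± 0.27 SE, limma adjusted p = 0.00781). The other lower window was chr21:45609984-45709983 around the start of PCBP3, with 11.1, 13.1 and 9.47 kb against 3.77, 5.87 and 5.81 kb (-0.93 ± 0.15, limma adjusted p = 0.0270). Higher in shTDP43 were chr17:600001-700000 in VPS53, an endosomal tethering gene (2.10 ± 0.27 against 4.40 ± 1.252 kb, SD, n = 3), and chr2:241993530-242093529, which holds no coding gene (2.32 ± 0.39 against 4.65 ± 0.32 kb). So were chr12:1600001-1700000 with WNT5B and ADIPOR2 (4.10 ± 0.79 against 7.17 ± 1.91 kb), chr7:600001-700000 in PRKAR1B and chr16:89838346-89938345 with SPIRE2, MC1R and TUBB3. In the PRKAR1B and SPIRE2 windows the covered lengths of the genotypes overlapped. The ZNF469 window was called in 4 of 6 fits that left out a library, losing its call without shNC replicate 1 or 2. Each of the other 6 windows was called in at most 2 of 6, and in none that left out an shNC library or shTDP43 replicate 2.

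Among coding genes 3 of 922 terminal genes tested were called higher and 1 lower, beside 0.172% higher and 0.75% lower (0.922% together) of all 12792. LUC7L at 16p (chr16:188990-229449), a component of the U1 splicing machinery, had 2.56, 2.19 and 2.64 kb under peaks in shNC and 4.52, 7.27 and 8.10 kb in shTDP43 (log2 difference 1.55 ± 0.17 SE, limma adjusted p = 0.00668). Since its promoter peak, given above, was identical in all 6 libraries, the added length lay in the rest of the gene. ATP11A at 13q (chr13:112690038-112887168), a phospholipid flippase gene, had 46.7, 41.5 and 41.3 kb in shNC and 19.4, 30.5 and 30.6 kb in shTDP43 (-0.52 ± 0.07, adjusted p = 0.0185). Both genes had groups that did not overlap. In unscaled covered length the same held for 75 of the 922 terminal genes and for 1895 of all 12792.

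PRKAR1B at 7p (chr7:549197-728934), a regulatory subunit of protein kinase A in neurons, had 82.2, 78.0 and 63.9 kb in shNC and 71.6, 99.0 and 100.9 kb in shTDP43 (0.46 ± 0.07, limma adjusted p = 0.0258). SPIRE2 at 16q (chr16:89828475-89871319), an actin nucleator gene, had 18.5, 17.2 and 16.3 kb and 17.0, 24.5 and 23.01 kb (0.49 ± 0.08, adjusted p = 0.0344). In both the covered lengths of the genotypes overlapped through shTDP43 replicate 1 and unscaled differences were 0.27 and 0.29. Without scaling none of the 4 genes was called, and the differences of LUC7L and ATP11A were 1.35 and -0.71. After RNase H LUC7L and SPIRE2 had 0 kb in both genotypes, ATP11A 5.14 and 2.10 kb and PRKAR1B 2.58 and 0.29 kb. LUC7L kept its call in 5 of 6 fits that left out a library and ATP11A in 3 of 6, each losing it without shNC replicate 1, and ATP11A also without shNC replicates 2 and 3. PRKAR1B and SPIRE2 were each called in 1 of 6, the fit without shTDP43 replicate 1. Over all 15 alternative settings of the fit LUC7L was called in 11, ATP11A in 7, PRKAR1B in 6 and SPIRE2 in 5. The log2 difference of LUC7L ran from 0.23 to 1.63 over these settings, and that of ATP11A from -1.37 to -0.47. With peaks held to a -log10 q of at least 10, 0 terminal genes were called higher.

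**Figure D5:**
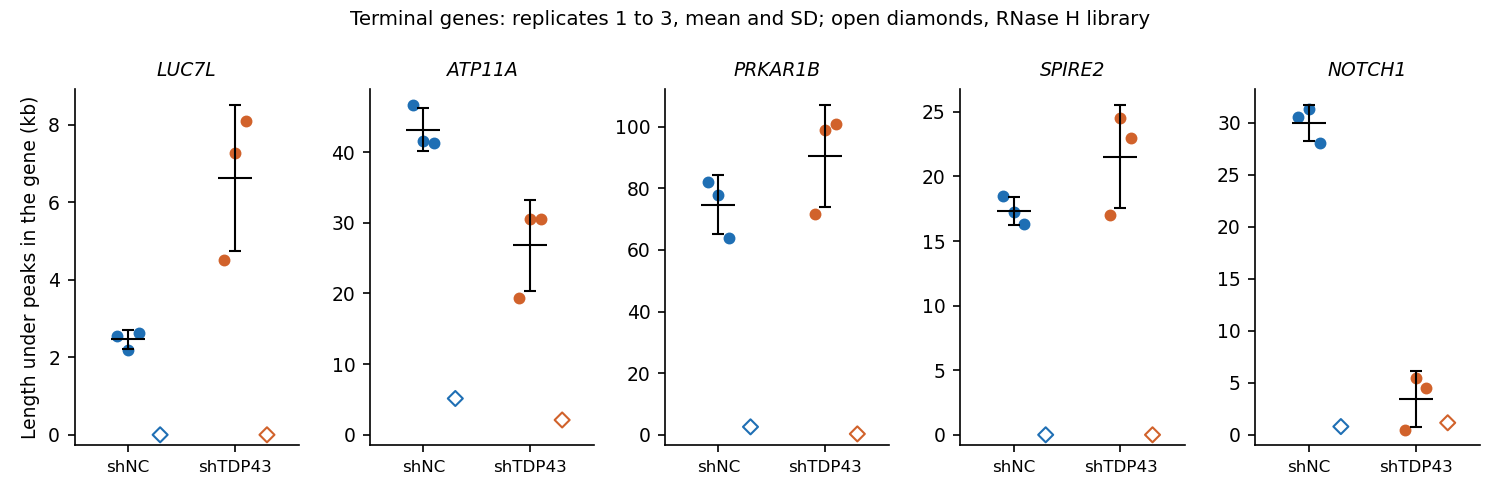
Length under peaks (kb) in the 4 terminal genes called between genotypes and in NOTCH1, with a point for each untreated library, the mean and SD (n = 3) in black, and the RNase H library as an open diamond. LUC7L, ATP11A and NOTCH1 show groups that do not overlap, whereas PRKAR1B and SPIRE2 overlap through shTDP43 replicate 1.

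The median log2 difference of the 922 terminal genes was 0.19, positive in 82.8%, against 0.05, positive in 56.4%, over all genes, and without scaling it was -0.0041 against -0.15. Within the lists the medians were 0.21 for telomere maintenance and DNA repair (10 of 10 positive), 0.19 for RNA processing (17 of 20), 0.19 for synaptic genes (19 of 24), 0.20 for transcription factors and chromatin (16 of 17) and 0.34 for the 2 duplicon genes. LUC7L was the 1 list member called. The medians of the 4 lists with 10 or more genes tested thus lay close to that of all terminal genes. NOTCH1 at 9q (chr9:136494433-136546048), the receptor of Delta and Jagged ligands, was picked out after its values were seen: 30.5, 31.3 and 28.1 kb in shNC against 0.422, 5.50 and 4.47 kb in shTDP43. The groups were far apart (log2 difference -3.49 ± 0.68 SE), but the limma adjusted p was 0.0664 and the gene was not called.

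Regions present in a single genotype were rare at the ends. Of 5832 terminal regions merged over the 6 untreated libraries 33.7% (1965) were in all 6, against 23.6% of 91492 interior regions, and 31.5% were in 1 library, against 39.1%. In all 3 shNC and no shTDP43 library were 43 terminal regions (0.737%; Wilson 95% interval 0.548 to 0.992), against 1.31% (1.24 to 1.39) in the interior. In all 3 shTDP43 and no shNC library were 25 (0.429%; 0.291 to 0.632), against 0.248% (0.218 to 0.283). The shNC-specific share was lower and the shTDP43-specific share higher at the ends than in the interior. Regions are not replicates and the intervals cover counting error only, so this is a description and not a test. At a -log10 q of at least 5 the shTDP43 shares were 0.144% (0.0617 to 0.338) and 0.0784% (0.0566 to 0.109), with overlapping intervals. The shNC shares were then 0.866% and 1.72%. Leaving out a library, chosen after seeing the data, changed these shares. Without shTDP43 replicate 1 the shTDP43 share was 2.59% at the ends and 1.69% in the interior. Without shNC replicate 3 the shNC share was 2.15% at the ends and 3.72% in the interior.

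The longest shNC-specific region, chr9:136546261-136549709 (3.45 kb), lay just beyond the start of NOTCH1 in the non-coding gene NALT1, and chr9:136523180-136525136 (1.96 kb) lay within NOTCH1. The others were chr14:105911588-105914748 (3.16 kb) in the immunoglobulin heavy chain locus, chr7:1964771-1967497 (2.73 kb) in the spindle checkpoint gene MAD1L1 and chr16:88380707-88382881 (2.18 kb) in ZNF469. The longest shTDP43-specific region was chr5:183956-188546 (4.59 kb) in PLEKHG4B, covered over 1910, 3500 and 1517 bp. It was followed by chr19:558480-562203 (3.72 kb), which overlaps no coding gene, chr6:170365432-170367056 (1.63 kb) in FAM120B, chr19:58283131-58284739 (1.61 kb) at the zinc finger gene ZNF8 and chr1:247290406-247291545 (1.14 kb). None of these 10 regions had a treated peak.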

How the data were processed

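Peak lists of 8 DRIP-seq libraries were analysed. Reads were processed with Bowtie2 2.4.4, SAMtools and MACS2 2.2.6 on hg38, per the submitters' processing notes. Peaks were called in each library separately, and the control used in calling was not given in the sources used here. The deposited lists give each peak a score, a fold enrichment (ratio) over background and -log10 p and q values, and no read counts, so the depth is known only through the background pileup recovered from the deposited summit values. From these lists densities, covered length and widths were computed with Python 3.11.15, numpy 2.4.6, pandas 2.3.3 and scipy 1.17.1. Libraries were compared by exact permutation tests. Covered length in windows and coding genes (RefSeq GRCh38.p14) was scaled to the median total, log2 transformed after adding 100 bp, filtered at a mean of 500 bp and fitted with limma 3.58.1 (R 4.3.3, trend and adjusted p under 0.05), a fit tested on simulated data. Named are called terminal items, list members with the most cover and the longest regions of each presence class. A member of the synaptic list is not reported here. Members and lists were chosen with earlier results of these data known. Alternatives varied the terminal length, peak thresholds, peak numbers, scaling, added length, trend, replicate block and libraries.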

Additional observations from a re-analysis of the deposited data

How the results depend on the processing

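Peak density, covered share and width kept their direction under every alternative tried except width at a terminal length of 500 kb. There the covered share was 0.22 (log2) and the width difference -32.75 bp. Leaving out 1 library left a smallest possible p of 0.0625, with ranges of 1.36 to 1.43 for density, 1.82 to 1.88 for cover and 159.3 to 177.6 bp for width. The genotype difference in width was -16.3 bp at 5 Mb and ranged from -23.2 to 33.3 bp without 1 library, turning negative (-23.2, -10.9 and -8.42 bp) without shNC replicate 3 or shTDP43 replicates 2 or 3. The share of terminal regions in shNC alone was 0.314% at 1 Mb and 1.00% at 5 Mb, and in shTDP43 alone 0.144% with peaks held to the q threshold of 5 (-log10). Without 1 library, chosen after seeing the data, these ran from 0.852 to 2.15% and from 0.629 to 2.59%. Regions overlapping a treated peak were 2.32% (shNC) and 1.87% (shTDP43) when 50% had to be covered, and 12.3% and 9.46% with that threshold. The cause was not tested.

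Counts of calls moved most. Calls among 2 Mb windows (66) were 0 without scaling, 159 with loess, 28 without trend, 10 and 3 at q thresholds of 5 and 10 (-log10), and 9 to 141 without 1 library. Among 100 kb windows (202) they were 20, 350, 121, 81 and 27, with 355 under the other pseudocount and 9 to 316 without 1 library. Among genes (118) they were 20 without scaling, 231 under the other pseudocount, 75 without trend, 33 and 32 at the stricter q, and 18 to 223 without 1 library. Higher terminal 2 Mb windows (3) were 0 without scaling, 18 with loess, 1 without trend, 0 at either q, and 0 to 12 without 1 library. Higher terminal 100 kb windows (5) were 0, 21, 0, 0 and 1, with 10 under the other pseudocount, and 0 to 9. Lower ones (2) were 0 without scaling, 8 with loess, 8 under the other pseudocount, 1 without trend, 4 at the q threshold of 5, and 0 to 7. Higher terminal genes (3) were 0 without scaling, 5 with loess, 7 under the other pseudocount, 0 at the q threshold of 10, and 0 to 7. Lower ones (1) were 0, 2, 3, 0 without trend, 2 at the q threshold of 5, and 0 to 6.

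Removing peaks that overlap the treated list of the same genotype gave 389, 1394 and 1741 calls in all, and 7 higher and 1 lower terminal 2 Mb windows, 42 and 24 100 kb windows, and 80 and 33 genes. The treated lists differ in length, so this setting makes differences between genotypes by construction. Same-numbered replicates did not deviate together (correlations from -0.29 to 0.06). With the replicate number as a block the calls were 54, 47 and 74, and terminal calls 1 higher 2 Mb window, 0 higher and 1 lower 100 kb windows, and 1 higher gene.

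Among the named genes and ends that were called in neither fit, some differences changed sign. Without scaling the log2 differences were ANKRD11 -0.14, CACNA1B -0.066, INTS1 -0.0079, MTA1 -0.0094, NSD2 -0.019, POLE -0.069, PRPF8 -0.049, PTPRN2 -0.14, WASHC1 -0.034, 16p -0.011, 19p -0.037, 3p -0.072, 4q -0.068, 8q -0.040, 9p -0.059 and 9q -0.12. At the q threshold of 10 they were ANKRD11 -0.041, CACNA1B -0.0063, POLE -0.11, 18p 0.19 and 3p -0.017. At that of 5 there was 4q -0.0029. With loess they were 18p 0.075 and 9q -0.021. Without peaks also called after RNase H they were CACNA1B -0.043, CHFR -0.12, EHMT1 -0.015, INTS1 -2.28, MTA1 -0.83, PCBP3 0.031, POLE -0.037 and PTPRN2 -0.094. Leaving out 1 library gave ranges across 0 of -0.061 to 0.20 for PTPRN2, -0.040 to 0.31 for WASHC1, -0.10 to 0.11 for 18p, -0.049 to 0.32 for 3p, -0.12 to 0.29 for 4q and -0.0032 to 0.12 for 9q.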
